A study of Mus musculus with 15 samples.

Results

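Promoters of chromosomes 8 to 19, which make up part 2 of a promoter microarray design, were compared between a pair of mouse embryonic stem (ES) cell lines on 7 arrays with 2 colours, out of 15 samples in the series. Each array carried methylated DNA pulled down from J1, the wild-type line, and from TKO, a DNA methylation deficient line, known as the triple knockout of Dnmt1, Dnmt3a and Dnmt3b. The 7 arrays were chosen by their titles, which number them as replicates of part 2, and the study text says that replicates used different passages. Both lines grew with serum and LIF and without feeder cells for the last 2 passages, and 2 ug of DNA went into each pull-down. Part 1 of the design (7 arrays with other promoters) and an expression sample of 3 arrays from the same lines are used only beside these results. Each genotype was represented by 1 line, and p-values below measure how far the arrays differed from each other, not how far lines do.

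Methylated DNA immunoprecipitation (MeDIP) uses an antibody against 5-methylcytosine to enrich fragments that carry it, so a fragment needs both CG dinucleotides and methyl groups on them to be pulled down. Dnmt1 copies methylation to the new strand at replication, and Dnmt3a and Dnmt3b set it on unmethylated DNA. In wild-type ES cells promoters rich in CG are mostly free of methylation, apart from germ cell genes and the silent copies of imprinted genes, while promoters poor in CG are more often methylated.

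Part 2 held 40284 probes under 8199 gene names. A promoter was all probes of 1 gene name with at least 3 probes, and 6814 promoters with a median of 5 probes were tested. The value of a promoter is the mean over its probes of log2(J1/TKO), centred on each array's median and averaged over 7 arrays. Negative values mean more signal in the channel labelled TKO, here called the labelled TKO side, and positive values mean more in that labelled J1. Cy3 is labelled as J1 and Cy5 as TKO on all 7 arrays, with no dye swap, so dye and line cannot be told apart. Neither side is therefore read here as the more methylated line. A call needed an adjusted p under 0.05 (limma with Benjamini-Hochberg over the 6814 promoters) and a mean at least 0.5 from 0.

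The sequences of 6 called promoters show how far CG content varied among the calls. The first 3 are those farthest on the labelled TKO side among promoters with at least 3 bright probes and a RefSeq sequence. The next is the CG-rich promoter farthest on that side with all its probes bright, and the last 2 are chromosome 8 promoters on the labelled J1 side with all probes on that side. Bright means well above background in both channels on every array. Each line gives the 250 bases before the gene's start in RefSeq (GRCm38.p6), 5′ to 3′ on the gene's strand, with every CG in capitals.
Prl7c1, chr13:27780805-27781054, minus strand, 2 CG: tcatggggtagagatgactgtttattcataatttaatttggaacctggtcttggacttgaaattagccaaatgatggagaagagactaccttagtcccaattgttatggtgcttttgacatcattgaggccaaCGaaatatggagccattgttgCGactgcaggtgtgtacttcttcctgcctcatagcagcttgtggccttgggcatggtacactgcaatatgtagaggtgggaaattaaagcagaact
Gjb6, chr14:57133612-57133861, minus strand, 5 CG: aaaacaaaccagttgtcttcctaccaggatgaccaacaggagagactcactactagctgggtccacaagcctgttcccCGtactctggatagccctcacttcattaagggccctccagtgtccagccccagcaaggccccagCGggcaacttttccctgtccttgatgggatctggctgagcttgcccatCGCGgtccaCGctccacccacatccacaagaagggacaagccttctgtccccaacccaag
Acot10, chr15:20666751-20667000, minus strand, 6 CG: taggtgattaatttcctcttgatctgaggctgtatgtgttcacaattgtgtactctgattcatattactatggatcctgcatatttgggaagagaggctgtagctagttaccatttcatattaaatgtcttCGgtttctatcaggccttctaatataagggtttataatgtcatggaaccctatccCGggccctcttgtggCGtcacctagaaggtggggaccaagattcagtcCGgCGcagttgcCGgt
Zfp560, chr9:20385159-20385408, minus strand, 19 CG: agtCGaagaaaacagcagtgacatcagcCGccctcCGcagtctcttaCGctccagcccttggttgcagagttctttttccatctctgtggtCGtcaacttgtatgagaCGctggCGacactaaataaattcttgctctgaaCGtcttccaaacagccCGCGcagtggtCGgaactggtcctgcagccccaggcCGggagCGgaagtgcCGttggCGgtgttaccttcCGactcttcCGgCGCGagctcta
Tox3, chr8:90348253-90348502, minus strand, 40 CG: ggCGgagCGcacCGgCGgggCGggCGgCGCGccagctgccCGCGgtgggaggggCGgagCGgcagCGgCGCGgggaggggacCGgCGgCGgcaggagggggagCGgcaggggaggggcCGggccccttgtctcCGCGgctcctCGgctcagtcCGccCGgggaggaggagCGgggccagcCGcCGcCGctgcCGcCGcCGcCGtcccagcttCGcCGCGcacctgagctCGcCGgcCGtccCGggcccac
Anapc10, chr8:79711513-79711762, plus strand, 28 CG: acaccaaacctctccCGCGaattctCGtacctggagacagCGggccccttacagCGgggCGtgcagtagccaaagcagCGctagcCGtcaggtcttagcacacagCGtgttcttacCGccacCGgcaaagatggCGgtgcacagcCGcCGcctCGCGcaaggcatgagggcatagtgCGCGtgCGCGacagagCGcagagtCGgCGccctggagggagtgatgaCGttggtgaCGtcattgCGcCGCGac
The motif searched was CG, which reads the same on both strands. It occurred in 94.8% of the 250-base windows of part 2 genes (4549 of 4797 with a RefSeq window), with a median of 13 per window, and in 91.7% of all 27025 RefSeq windows. The 3 promoters farthest on the labelled TKO side held 2, 5 and 6, fewer than that median, while the 2 from chromosome 8 held 40 and 28. Array probes are placed only by their distance from the gene start in the design, since no source used here names the build of their positions.

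Of the tested promoters, 142 were called on the labelled TKO side (2.08%), while 6 lay on the opposite side (0.0881%). The median SD over arrays was 0.19 for the 142 promoters and 0.097 for uncalled ones. By the adjusted p alone, 2128 promoters lay below 0 (31.2%) and 1721 above it (25.3%), while the calls were nearly all on 1 side. Here 0 is only relative, since signals were dye-normalised and each array was centred on its median. That many promoters lay on each side of 0 was thus set by the scaling. A difference common to all promoters would not show. Part 1 gave 138 calls (2.02%) below 0 and 3 (0.044%) above it. With normexp background correction, which adds an offset of 50 to both channels, 2 promoters were called below 0 and 1 above it.

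Farthest on the labelled TKO side was Efcab5, which codes for an EF-hand protein and ranged from -1.66 to -0.71 over the 7 arrays with a median of -1.30. Its mean was -1.23 ± 0.32 (SD, n = 7, adjusted p = 5.1e-06 by limma with Benjamini-Hochberg), and all 7 arrays lay below 0. Cldn17, a claudin of tight junctions, had -0.94 ± 0.13 and ranged from -1.11 to -0.75. Both had only 2 bright probes, and over spots above background in both channels their means were -1.17 and -0.83. Efcab5 kept -1.14 without its farthest probe.

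Among promoters with at least 3 bright probes, Trps1, which codes for a GATA-type repressor, had the lowest array at -1.21, a median of -0.84 and the highest at -0.69. Its mean was -0.92 ± 0.21, and -0.82 over spots above background in both channels. The probe just inside the gene, at 303 bp, was on the other side at 0.17, so the difference lay upstream. Prl7c1, a placental hormone gene of the prolactin family, ranged from -1.09 to -0.66 with a median of -0.96 and a mean of -0.89 ± 0.18 (adjusted p = 3.3e-06 by limma with Benjamini-Hochberg). All 5 of its probes were bright on all 7 arrays, and their means lay between -1.09 and -0.72 from -880 to 258 bp. No probe of Prl7c1 stood apart from its neighbours, and no array reached 0.

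Gjb6, the gap junction protein connexin 30 of the inner ear, ranged from -1.29 to -0.67 with a median of -0.88 and a mean of -0.89 ± 0.21. Its probes became more negative along the promoter, from -0.22 at -1460 bp over -0.97 at -167 bp to -2.12 at 390 bp, where the probe was bright on 3 arrays. Acot10, an acyl-CoA thioesterase, ranged from -1.16 to -0.45, with a mean of -0.85 ± 0.25. Aldh1a1, an enzyme that makes retinoic acid, had -0.81 ± 0.14, from -0.99 to -0.62. Over spots above background in both channels the means of Gjb6, Acot10 and Aldh1a1 were -0.72, -0.79 and -0.60. These promoters did not overlap 0 on any array, and each kept a mean past -0.5 without its farthest probe.

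Further promoters with at least 3 bright probes had means between -0.82 and -0.73 over all their probes, dim ones included. Over spots above background in both channels, the means of those named here ran from -0.84 (Mia2) to -0.53 (Arpp19). Ftmt and Arhgap5 had -0.63 there. Of the probes of Arpp19 bright on all 7 arrays, that at -712 bp stood at -0.91 and those at -204 and 76 bp at -0.093 and -0.14. Tff1, a peptide of the stomach lining, had 5 bright probes, and its 7 arrays ran from -1.03 to -0.42 with a mean of -0.74 ± 0.21. Slc10a1, the bile acid uptake transporter of hepatocytes, had a mean of -0.75 ± 0.43, with arrays from -1.57 to -0.31 and the largest SD of the named promoters. Rnase2a, an eosinophil-associated ribonuclease, had -0.78 ± 0.25, and Ftmt, the mitochondrial ferritin, had -0.82 ± 0.23. Fzd3, a Wnt receptor, had -0.77 ± 0.22, Arhgap5, a GTPase-activating protein, had -0.75 ± 0.19, and Arpp19, an inhibitor of the phosphatase PP2A in mitosis, had -0.73 ± 0.19. Mia2, whose protein helps export cargo from the endoplasmic reticulum, had -0.81 ± 0.21, with array 2 at -1.23 and the other 6 between -0.90 and -0.66. Chd8, a chromatin remodeller, had -0.74 ± 0.25, but its nearest probe lay 21492 bp from the start in the design. The plot of named promoters by array shows that the called ones on this side stayed below 0 on every array.

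**Figure D1:**
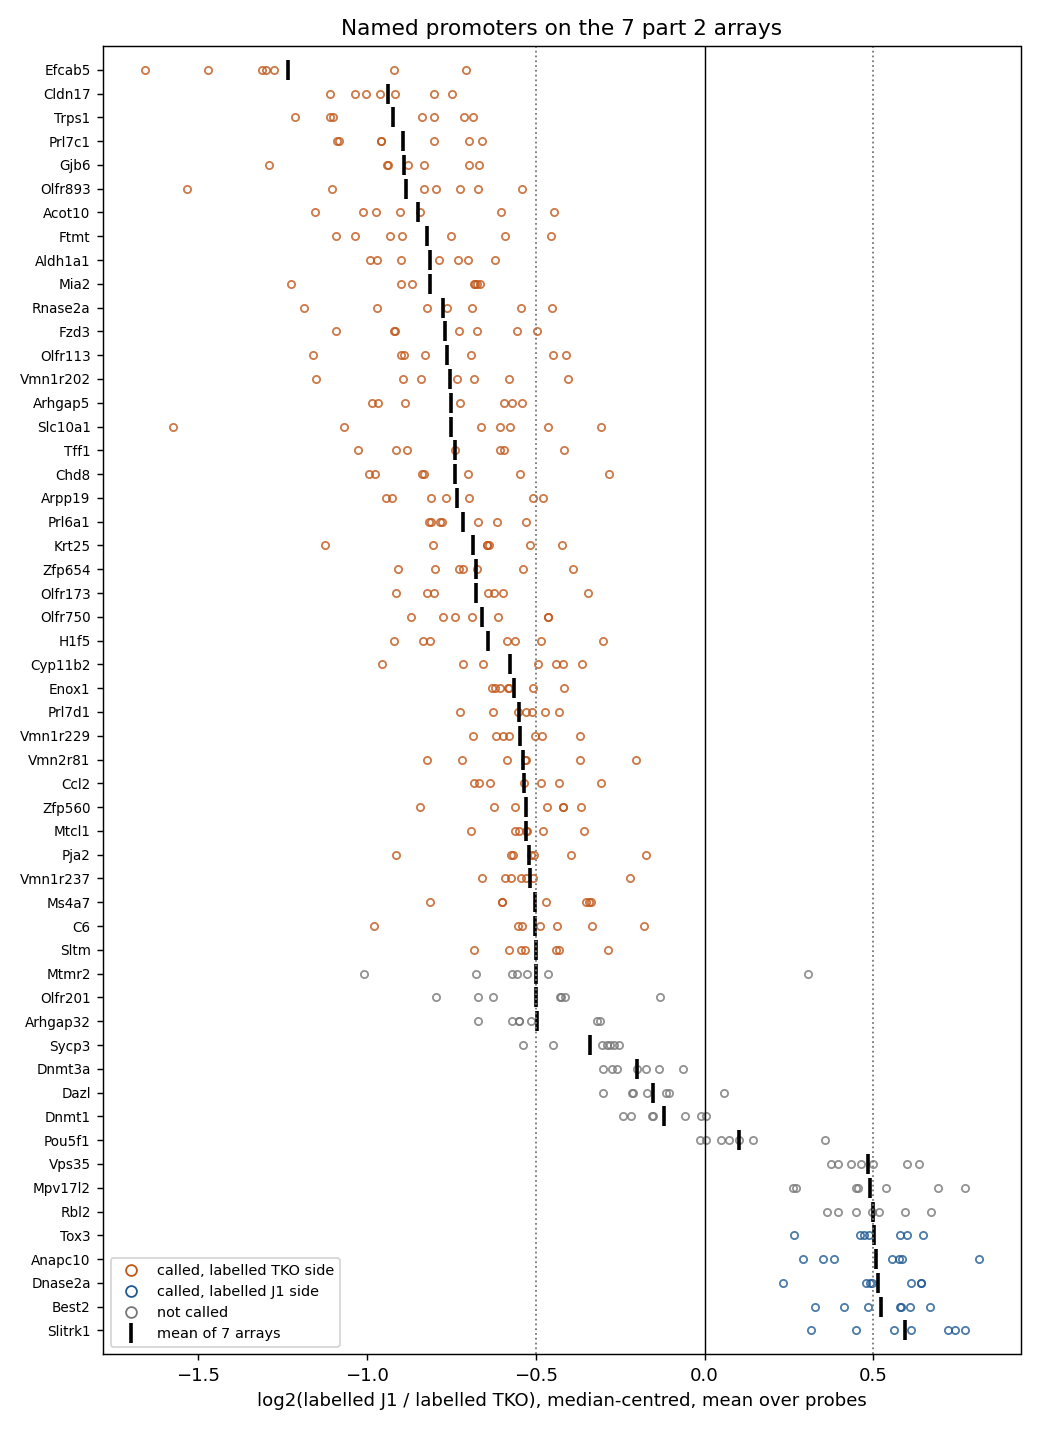
Each row is 1 named promoter, each circle 1 of the 7 arrays, and each black bar the mean, on a log2 scale of labelled J1 over labelled TKO (x axis); dotted lines mark 0.5 from 0. Every circle of the called promoters lies on the side of its bar, and Mtmr2, just short of 0.5, has 1 array at 0.31.

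The labelled J1 side had few promoters, and they fell into 2 kinds. Slitrk1, a neuronal membrane protein gene on chromosome 14, ranged from 0.31 to 0.77 with a median of 0.61 and a mean of 0.60 ± 0.17 (adjusted p = 1.1e-05 by limma with Benjamini-Hochberg). Its value came from 1 probe at -789 bp, which stood at 2.91 with all 7 arrays above 0. The other 4 probes lay between -0.28 and 0.16, and the mean without that probe was 0.016. The call under the joined name AW049765-E130307M08Rik (0.55) also held 1 probe at 2.92, without which its mean was 0.15.

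The other 4 calls on that side were all on chromosome 8 and had no such probe. Best2, an ion channel gene of the bestrophin family, ranged from 0.33 to 0.67 with a mean of 0.52 ± 0.12, and its 5 probes lay between 0.29 and 0.97. Dnase2a, the DNase of lysosomes, had a mean of 0.51 ± 0.14, with array 7 at 0.23 and the other 6 between 0.48 and 0.64. Anapc10, a subunit of the anaphase-promoting complex, had 0.51 ± 0.18 and ranged from 0.29 to 0.81. Tox3, which codes for a nuclear protein with an HMG box, had 0.50 ± 0.13 and ranged from 0.27 to 0.65. All 7 arrays lay above 0 for each of them. Without their farthest probe, which lowers any such mean, their means were between 0.38 and 0.44.

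**Figure D2:**
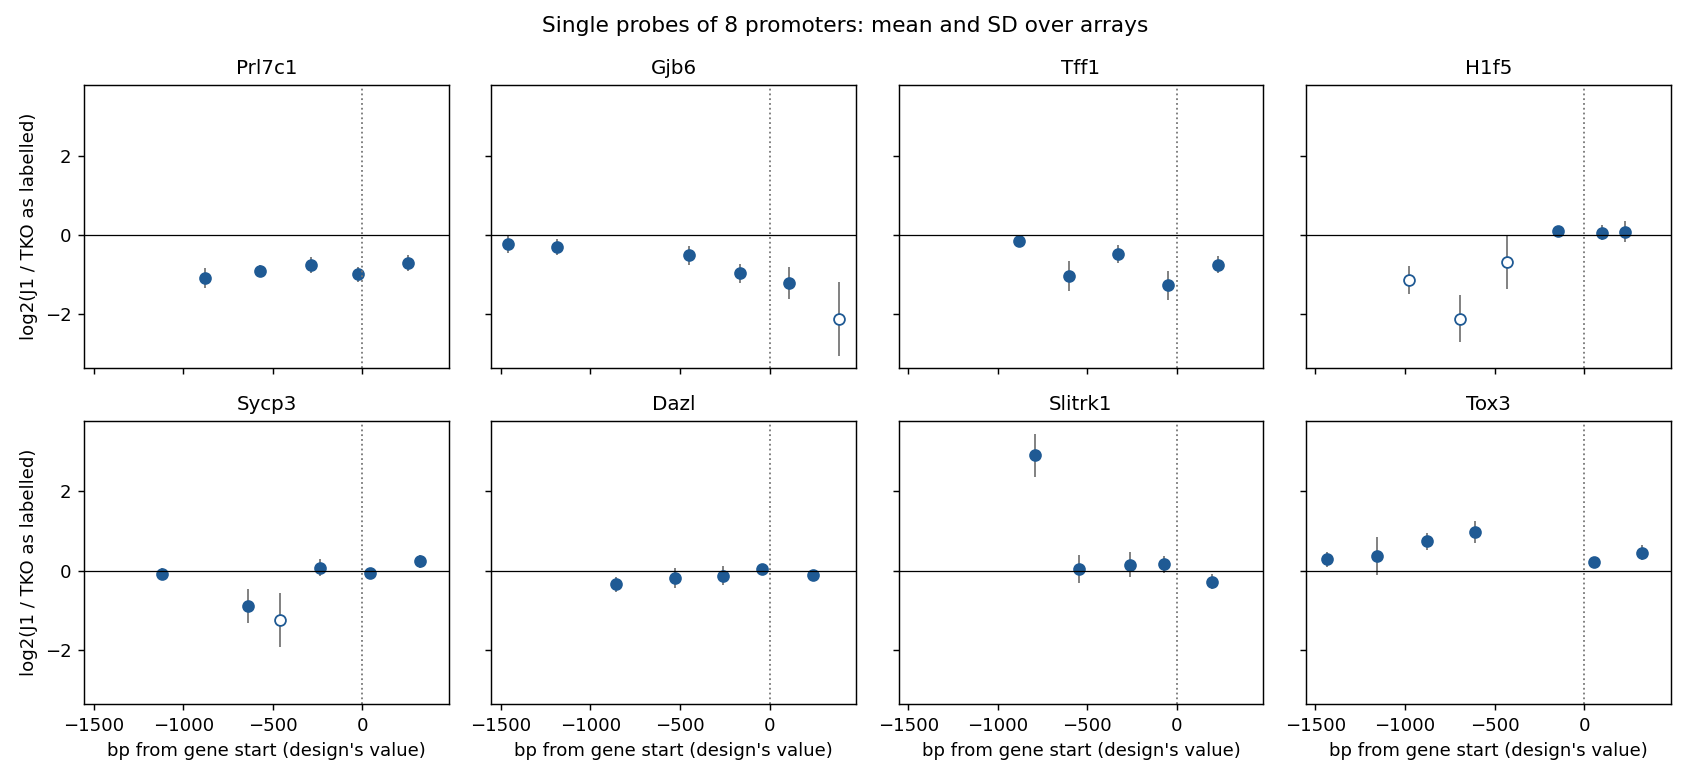
Mean log2 ratio of single probes (y axis, labelled J1 over labelled TKO, bars are the SD over arrays) against distance from the gene start in bp (x axis) for 8 promoters; filled points are bright on all 7 arrays. The probes of Prl7c1 stay near -0.9 throughout, Slitrk1 has 1 probe at 2.91 with the rest near 0, and the negative probes of H1f5 are the open ones.

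Probe by probe, 109 of the 142 called promoters on the labelled TKO side had every probe below 0. Without the farthest probe of each, 62 still had a mean past -0.5 and none crossed 0, and of the 6 on the labelled J1 side none stayed past 0.5. At the edge of the size rule the promoters were alike on both sides of it. Just inside were Ms4a7 (-0.50), C6, a complement component (-0.50), and Sltm (-0.50), and just outside were Mtmr2 (-0.50), Olfr201 (-0.50) and Arhgap32 (-0.50). On the other side Rbl2 (0.498), a relative of the retinoblastoma protein, Mpv17l2 (0.49) and Vps35 (0.49), a retromer subunit, all on chromosome 8, fell just short of Tox3.

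Promoters poor in CG lay towards the labelled TKO side and promoters rich in CG lay slightly towards the other. The count was taken in the RefSeq window from 250 bases before to 50 after the start, which 4806 promoters had. The median ratio was -0.16 for 585 promoters with 0 to 2 CG and -0.15 for 453 promoters with 3 to 5. It was -0.065 with 6 to 10 (549 promoters), 0.011 with 11 to 15 (521), 0.043 with 16 to 20 (634), 0.050 with 21 to 30 (1212) and 0.054 with 31 to 60 (847). The medians followed the CG count and differed little beyond 16. With 0 to 2 CG the medians of the 7 arrays ran from -0.24 to -0.046, and with 31 to 60 from 0.026 to 0.071, so these classes did not overlap on any array. Across the 4806 promoters Spearman's rank correlation of CG count with the ratio was 0.38, and on single arrays it was between 0.18 and 0.38; the promoters share arrays and signal levels.

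The called promoters on the labelled TKO side were also mostly poor in CG, but the share called did not fall steadily with CG count. It was 5.30% with 0 to 2 CG, 0.315% with 16 to 20 and 1.49% with 21 to 30. These called promoters had a median of 5 CG against 18 for uncalled ones. Of the 104 with a RefSeq window, 71 (68.3%) had at most 10, against 32.2% of uncalled ones. A smaller set was rich in CG: 27 of the 104 had over 20 (26.0%), a lower share than among uncalled promoters (43.3%). It takes in Chd8 and Enox1, whose nearest probes lay 21492 and 223440 bp from the start, outside the counted window. Zfp560, a zinc finger gene printed above with 19 CG upstream, was of that set, with a mean of -0.53 ± 0.17 and arrays from -0.84 to -0.37. Its probes at -68 and 171 bp stood at -0.83 and -0.80, while that at -345 bp stood at -0.22.

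Signal moved with both measures. The 142 called promoters had a median log2 signal of 7.96 against 9.87 for uncalled ones, and 87 of them were among the 682 dimmest promoters, whose median ratio was -0.21. Of the 682 brightest none was called and the median was 0.060. At least 3 bright probes were present in 106 of the 142, and 36 had fewer. CG-poor promoters were dimmer, with a median log2 signal of 8.62 at 0 to 2 CG and 10.03 at 31 to 60. Promoters were then put in 3 equal classes of signal. Within the dimmest class the median was -0.20 with at most 10 CG and -0.028 with over 20, within the middle class -0.098 and 0.050, and within the brightest -0.051 and 0.077. CG-poor promoters were the lower ones in each class of signal, and the dimmest class was lowest at each level of CG. The part of signal in the CG order was not tested beyond this. With normexp and median centring the medians were 0.0074 with at most 10 CG and 0.053 with over 20, the rank correlation with CG fell to 0.11, and that with signal turned from 0.36 to -0.32. With normexp and loess the medians were -0.055 and 0.035, and the correlations 0.33 with CG and 0.13 with signal. Loess on the processed signals gave -0.095 and 0.055, with correlations of 0.33 and 0.14.

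**Figure D3:**
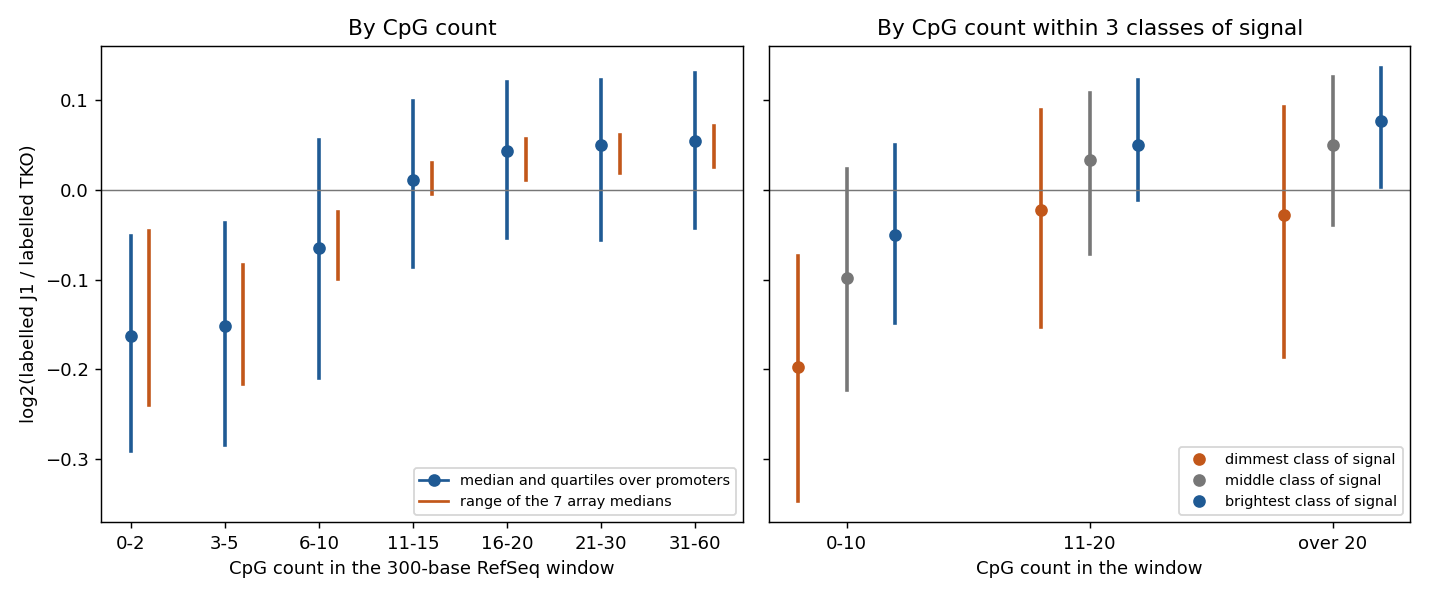
Median (points) and quartiles (lines) of the promoter log2 ratio of labelled J1 over labelled TKO (y axis) by CpG count in the 300-base window, over all matched promoters (left, with the range of the 7 array medians) and within 3 classes of signal (right). Medians go from -0.16 at 0 to 2 CpG to 0.054 at 31 to 60, and in each class of signal the group with at most 10 is lowest.

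Along the gene the ratio was above 0 from 500 bp upstream to 1000 bp inside, and highest from 500 to 1000 bp inside. Probes 1000 to 2000 bp upstream had a mean of array medians of -0.11 ± 0.035 (SD, n = 7), and those 500 to 1000 bp upstream -0.040 ± 0.020. Between -250 and 0 bp it was 0.050 ± 0.023, from 0 to 250 bp 0.055 ± 0.031, and from 500 to 1000 bp inside the gene 0.071 ± 0.027. Further inside, from 1000 to 3000 bp, it was -0.064 ± 0.039. The probes near the start were also the brighter ones, with a median log2 signal of 10.6 from 0 to 250 bp and 9.12 from 1000 to 2000 bp upstream. From 500 to 1000 bp inside, where the ratio was highest, the median signal was only 9.35.

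Receptor genes of the nose, which are silent outside sensory neurons and poor in CG, lay towards the labelled TKO side. Of 322 olfactory receptor promoters, 12 were called there (3.73%) and 181 lay below 0 by the adjusted p (56.2%), with 16 above (4.97%). Over all 6814 promoters these shares were 2.08%, 31.2% and 25.3%, and they stand beside every list below. Their median was -0.17, beside -0.0027 for all 6814 promoters. Olfr893 had -0.89 ± 0.33, Olfr113 -0.76 ± 0.27, Olfr173 -0.68 ± 0.19 and Olfr750 -0.66 ± 0.15, and each of these had fewer than 3 bright probes. Of 31 vomeronasal receptor promoters, which detect pheromones, 4 were called (Vmn1r202 at -0.76, Vmn1r229 at -0.55, Vmn2r81 at -0.54 and Vmn1r237 at -0.52) and 15 lay below 0 by the adjusted p, with a median of -0.11. The median log2 signal was 7.84 for the olfactory and 7.90 for the vomeronasal receptors, and their medians turned to 0.15 and 0.10 with normexp and median centring. The median of all promoters was 0.038 under that scaling. With normexp and loess the receptor medians were -0.021 and -0.049, beside 0.0053 for all promoters.

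Keratin promoters held the same side under each scaling. All 14 keratin promoters, the intermediate filament genes of epithelia and hair, lay below 0 by the adjusted p, with a median of -0.27 and 1 call. That call, Krt25, a keratin of the hair root sheath, ranged from -1.12 to -0.42 with a mean of -0.69 ± 0.23. Krt39 (-0.45) and Krt90 (-0.40) followed. Their median was between -0.31 and -0.17 under the 6 other scalings, and their median log2 signal of 10.3 was above that of all promoters (9.85). Of 11 keratin-associated protein promoters 10 lay below 0 by the adjusted p and none was called. Their median was -0.28. It turned to 0.048 with normexp and median centring, where all promoters had 0.038, and was -0.10 with normexp and loess.

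The prolactin family on chromosome 13, hormones made mostly by the placenta in rodents, was listed after its values were seen. Of 20 promoters 15 lay below 0 by the adjusted p, none above, and 3 were called. Besides Prl7c1, Prl6a1 had -0.71 ± 0.11 (from -0.82 to -0.53) and Prl7d1 had -0.55 ± 0.10 (from -0.72 to -0.43). Their median was -0.34, from dim promoters with a median log2 signal of 7.23, and turned to 0.16 with normexp and median centring. With normexp and loess it was -0.063. The trophoblast list, which shares members with the prolactin family, had 5 of 10 below 0 and 2 above. Its median of -0.12 turned to 0.11 with normexp and median centring and was -0.045 with normexp and loess.

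Genes of other differentiated tissues kept their side. In a list of 24 genes of liver, gut, muscle, gland and blood, 15 lay below 0 by the adjusted p and 1 above, with a median of -0.15, and Lyz1, the lysozyme of Paneth cells, was called at -0.60. The muscle oxygen store Mb had -0.36 and Ifng, the interferon of T cells, -0.32. The list's median stayed between -0.19 and -0.091 under the other scalings. Of 35 cytochrome P450 promoters, enzymes of steroid and drug metabolism, 17 lay below 0 and 3 above, and Cyp2d13 (-0.71) and Cyp11b2, which makes aldosterone (-0.58 ± 0.21), were called. Of 14 clustered protocadherin promoters, neuronal adhesion genes, 7 lay below 0 and none above. The medians of these last lists, -0.11 and -0.12, turned to 0.023 and 0.14 with normexp and median centring. All promoters then had a median of 0.038, so the cytochrome P450 list stayed below them and the protocadherins did not. With normexp and loess the medians were -0.036 and -0.014, beside 0.0053 for all promoters.

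Germ cell promoters were on both sides. Of 17, 9 lay below 0 by the adjusted p (52.9%) and 4 above (23.5%), beside 31.2% and 25.3% of all promoters. None was called, and the median was -0.089. Sycp3, of the synaptonemal complex, ranged from -0.54 to -0.25 with a mean of -0.34 ± 0.11. Only its probes at -638 and -460 bp stood far from 0, at -0.89 and -1.24, while the 3 from -236 to 325 bp lay between -0.066 and 0.24. Dazl, an RNA-binding protein of germ cells, had -0.15 ± 0.11 with 1 array above 0, and its probe at -40 bp stood at 0.041. Tdrd1, of the piRNA pathway, was at -0.25, while Syce2 and Nanos3 were each at 0.28. The lists were not split by chromosome, and chromosome 8 lay on the labelled J1 side as a whole, as given below. Of 12 imprinted gene promoters 6 lay below 0 (50%) and 4 above (33.3%), from Airn, the antisense RNA at Igf2r, at -0.34 to Rasgrf1 at 0.30. Their median of -0.080 turned to 0.011 with normexp and median centring, still below the 0.038 of all promoters.

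Histone and germ layer promoters had medians on the labelled J1 side. The list of replication-dependent histones, which also took in H1f0 (-0.0054), had a median of 0.14. In it 17 of 29 promoters lay above 0 by the adjusted p and 3 below. The list's median stayed between 0.091 and 0.20 under the other scalings. H3c2 stood at 0.38 and H2ac12 at 0.32. The 3 below 0 were H1f5, H2ac1 (-0.45) and H2bc1 (-0.21). H1f5, a linker histone, was called on the labelled TKO side at -0.64 ± 0.22, but its 3 bright probes stood between 0.050 and 0.088 and those at -975, -692 and -428 bp were dim. Among the germ layer regulators 5 of 7 lay above 0, such as Otx2 (0.17) and Eomes (0.14), with a median of 0.12. Among 10 pluripotency promoters 3 lay above 0 (30%, near the 25.3% of all promoters) and 1 below. Jarid2 was at 0.15 and Esrrb at -0.33. Pou5f1, the gene of Oct4, had 0.10 ± 0.12 (adjusted p = 0.060 by limma with Benjamini-Hochberg), with its nearest probe 1968 bp from the start.

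The genes of the methylation machinery itself had small promoter means on both sides. Of 11 promoters 4 lay below 0 and 4 above (36.4% each), beside 31.2% and 25.3% of all promoters. Mbd2, which binds methylated DNA, stood at -0.34 and Tdg, a glycosylase that removes oxidised methylcytosine, at -0.32. Dnmt3a had -0.20 ± 0.084 with all 7 arrays below 0. Its probes at 98 and 375 bp, bright on all 7 arrays, stood at -0.78 and -0.42. The probes of Dnmt3a upstream of the start lay between -0.067 and 0.039. Dnmt1 had -0.12 ± 0.099 with 1 array above 0, and its mean turned to 0.066 with normexp and median centring. Uhrf1, which guides Dnmt1, stood at 0.22 and Suz12, a Polycomb subunit, at 0.26. Dnmt3b, Dnmt3l, Nanog, Sox2, Actb and Gapdh were not among the tested promoters of part 2.

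The remaining lists lay close to all promoters. The medians were 0.046 for 35 Polycomb targets, 0.033 for 13 Hox genes, 0.041 for 21 housekeeping genes, 0.046 for 29 ribosomal protein genes and 0.030 for 120 zinc finger genes. They were 0.056 for 12 p53 targets, 0.014 for 13 primitive and visceral endoderm genes, 0.045 for 9 fibroblast markers and -0.040 for 9 interferon response genes. Only the zinc fingers (Zfp654 at -0.68 and Zfp560, 1.67% of the list) and the ribosomal proteins (1, 3.45%) held calls, beside 2.08% of all promoters. The ribosomal call carried a name whose chromosome on the array differs from RefSeq's. With mode centring the medians of the Hox, zinc finger, methylation machinery and endoderm lists were below 0. That centring moved the median of all promoters to -0.042, and these lists stayed above it. The endoderm median was also below 0 with normexp, and there it was below that of all promoters. No promoter of the Rhox or defensin lists was tested.

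**Figure D4:**
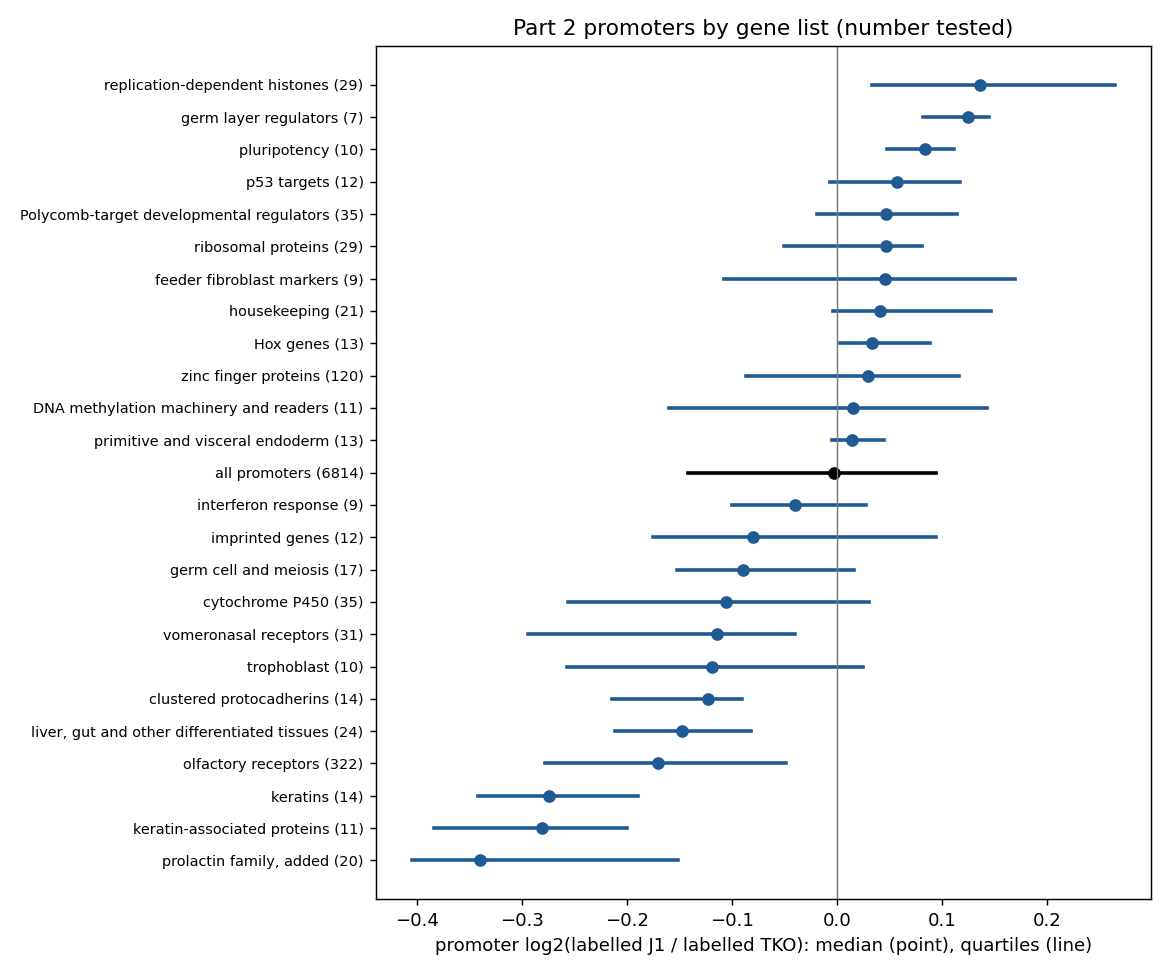
Median (point) and quartiles (line) of the promoter log2 ratio of labelled J1 over labelled TKO (x axis) for each gene list, with the number of promoters tested, and for all promoters in black. The prolactin family (-0.34), both keratin lists (-0.28 and -0.27) and the olfactory receptors (-0.17) are lowest and the histones (0.14) highest.

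Chromosome 8 as a whole lay on the labelled J1 side. The median of its 458 promoters was between 0.066 and 0.11 on the 7 arrays, with a mean of 0.082 ± 0.016 (SD), and all 7 were above 0 (exact two-sided sign-flip permutation test, p = 0.015625, the smallest that 7 arrays allow; 0.046875 after Benjamini-Hochberg over 12 chromosomes). No other chromosome median exceeded 0.029 on any array. By the adjusted p, 47.6% of chromosome 8 promoters lay above 0 and 19.9% below, against 25.3% and 31.2% of all. Of the 20 promoters farthest on the labelled J1 side, 18 were on chromosome 8, which held 6.72% of promoters. Chromosomes 12, 14 and 16 had all 7 medians below 0, with means of -0.031, -0.032 and -0.026. The other 8 had medians on both sides. By the exact two-sided sign-flip permutation test, chromosomes 12, 14 and 16 each had p = 0.015625 (0.046875 after Benjamini-Hochberg), as did chromosome 8. The test therefore does not set chromosome 8 apart from them, and its median lay farther from 0, on the opposite side. Without any 1 array the chromosome 8 mean was between 0.077 and 0.085, with adjusted p between 0.075 and 0.09375; 6 arrays allow no p below 0.03125 before adjustment.

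**Figure D5:**
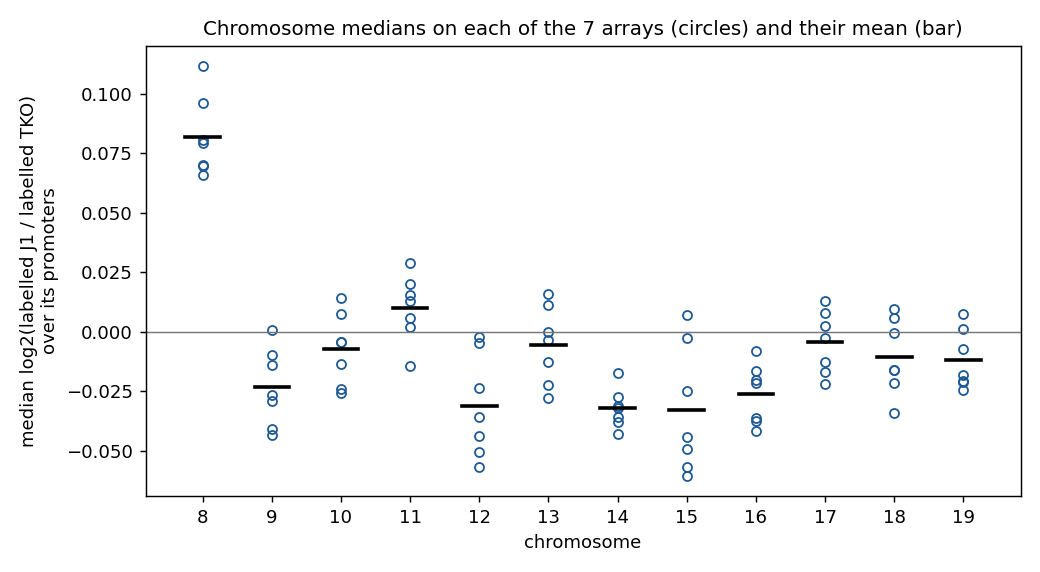
Median log2 ratio of labelled J1 over labelled TKO of the promoters of each chromosome (y axis) on the 7 arrays (circles) with their mean (bar), for chromosomes 8 to 19 (x axis). The circles of chromosome 8 lie between 0.066 and 0.11, above every circle of the other chromosomes.

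The expression arrays, read as log2(TKO/J1) with J1 taken in Cy5 on 2 of the 3 arrays, were set beside the promoter calls. The labels name both dyes for each line, with Cy5 first for J1; this order is likely but not settled, and every RNA direction below rests on it. It was chosen with the Dnmt values in view, so these are no check of it: Dnmt1 had -1.07, Dnmt3a -2.36, Dnmt3b -2.50 and Dnmt3l, the cofactor without enzyme activity, 0.79. The values of Dnmt1 and Dnmt3a rest on 2 arrays. Of all 8243 genes measured, 1541 were higher in TKO (18.7%) and 1306 lower (15.8%) by limma with a Benjamini-Hochberg adjusted p under 0.05. Of the 10 ES cell markers on the array 8 were above background in each line on all 3 arrays, and of 9 fibroblast markers 2 were in J1 and 3 in TKO. All 3 fibroblast markers that could be measured were higher in TKO, Col1a2 by 1.00, Prrx1 by 0.51 and Col1a1 by 0.48 (2 arrays). Col3a1, Postn and Thy1 were detected on 2 arrays in each line, and Dcn on 2 in J1 and 1 in TKO. Lum and Twist2 were detected on no array. Of the ES cell markers, Nr0b1 (-1.55), Sox2 (-0.80), Pou5f1 (-0.72, 2 arrays) and Esrrb (-0.45, 2 arrays) were lower in TKO and Klf4 (0.99) was higher. Dppa4 (-0.25), Tdgf1 (-0.21) and Zfp42 (0.15), on 2 arrays each, did not pass the adjusted p. The markers were measured on the same 3 arrays as the RNA differences below, and their part in those differences was not tested.

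Genes with a called promoter on the labelled TKO side were mostly not detected as RNA. Of 125 on the expression array 27 were detected in J1 on all 3 arrays (21.6%), against 53.2% of genes with an uncalled promoter, and 28 in TKO (22.4%, against 51.7%). Of the 31 that could be measured, 5 were higher in TKO (16.1%) and 2 lower (6.45%), close to the share over all genes for the rises. Prl7d1 was not detected in J1 and was detected on all 3 arrays in TKO, at 1.64 ± 0.52 (SD, n = 3, limma with Benjamini-Hochberg adjusted p = 2.3e-05). Ccl2, a chemokine whose promoter had -0.54 ± 0.14 with its nearest probe at -861 bp, was at 1.29 ± 0.065. H1f5 (0.54, 2 arrays), Pja2, a ubiquitin ligase (0.41, promoter -0.52), and Sltm (0.24) also rose. Enox1 (-0.42) and Mtcl1, a microtubule cross-linker (-0.27), fell. The nearest probe of Enox1, whose promoter value was -0.56, lay 223440 bp from the start, and Mtcl1 (-0.53) drew on a probe at -1.47 that was bright on 1 array.

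On the labelled J1 side 2 genes could be measured: Dnase2a rose by 0.55 ± 0.23, and Tox3 had 0.15. Chromosome 8 genes of part 2 had a median RNA difference of 0.15 over 242 genes, with array medians from 0.095 to 0.17, and 38.4% of them were higher in TKO and 8.68% lower. Chromosome 13 had 0.12 over 240 genes, with a promoter median of -0.0057, and the other 10 chromosomes lay between -0.058 and 0.035. Dazl RNA was higher in TKO by 2.42 ± 0.40 and Sycp3 RNA by 0.33 ± 0.061 (2 arrays).

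The 7 arrays were alike in depth. The share of probes well above background was 93.6% to 99.7% in the J1 channel and 94.8% to 99.1% in the TKO channel. Promoter ratios of array pairs correlated at r between 0.52 and 0.82 across promoters (median 0.71 over 21 pairs), and the SD over promoters was lowest on array 1 (0.18) and highest on array 2 (0.27). Array 5 had 2681 uneven spots, which were left out, and the others had 3 to 572. Slide codes repeat for arrays 2 and 4 (r = 0.74) and for arrays 5 and 6 (r = 0.61), and with the slide as a random block 144 and 7 promoters were called.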

How the data were processed

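MeDIP DNA of J1 and TKO was hybridised together on 7 Agilent arrays with 2 colours. The submitters' processing notes name Agilent Feature Extraction 8.5. The scanner files' intensity values are background-subtracted with spatial detrending and linearly dye-normalised, per the file headers. The table the authors deposited gives log10 of red over green, within 0.00497 of the scanner's own ratio; array medians were between -0.0114 and -0.0025, and how it was centred is unknown.

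The log2 of green over red processed signal was taken per probe, without loess, and the median over an array's non-control probes was subtracted. Control spots and spots flagged as uneven or as outliers in either channel were left out. The test of promoter means against 0 used limma 3.58.1 in R 4.3.3 with Benjamini-Hochberg adjustment. Names came from RefSeq accessions for 6558 promoters and from symbols for 187, and 69 kept the file's name; 242 names covered over 1 chromosome or 20000 bp, and 412 joined genes. RNA values used normexp (offset 50) and loess, replicate 2 turned, the brightest probe of a gene, and genes above background in either line on all 3 arrays with at least 2 unflagged values. J1 is taken in Cy5 on expression arrays 1 and 3, the dye the labels list first for it; under this order the Dnmt genes are lower in TKO, and the labels do not settle it.

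Named promoters had 1 symbol. With a call and all 7 arrays on 1 side these were the 15 farthest on the labelled TKO side and up to 12 on the other with at least 3 bright probes, the 5 farthest on each side, up to 4 calls per list, and the 6 largest RNA rises and falls. Called or not, the 3 promoters nearest to the size of 0.5 on each side of it and a few fixed genes were added. Other members are named only with their lists, after their values were seen. Some of what these rules select is not reported here. That RefSeq's chromosome had to agree was added after values were seen. Members and lists were chosen with earlier results of these data known. On simulated data with 200 changed promoters of 6814 the fit recovered 98% at a log2 change of 0.6 with 0 false calls. Unchanged promoters were drawn independently around 0 with their own SD and could hardly reach the size of 0.5. The count of false calls therefore says little about the data. No dye bias, dependence on signal or shared array effect was simulated. For RNA (5120 genes with 3 values) the fit recovered 92.5% at 1 with 2 false calls. Alternatives covered background, loess, centring, the value table, probes, splitting, adjustment, slides, chromosome 8 and single arrays. The number of arrays limits the precision.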

Additional observations from a re-analysis of the deposited data

Results flagged for a closer look

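Over 7 arrays, 54 named promoters and 12 chromosome medians were examined for 1 array far from the other 6, by a rule that flags about 5% of groups by chance, and 5 promoters had one. Array 3 stood apart at Vmn1r237 (-0.22, the others from -0.66 to -0.51) and at Mtmr2 (0.31, the others from -1.01 to -0.46), which passes the size of 0.5 without that array (-0.63) and without array 1 (-0.51). Array 2 stood apart at Mia2 (-1.23, the others from -0.90 to -0.66), array 6 at Pou5f1 (0.36, the others from -0.013 to 0.14) and array 7 at Dnase2a (0.23, the others from 0.48 to 0.64). No chromosome median had such an array.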

How the results depend on the processing

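With normexp, which also adds an offset, 2 promoters were called below 0 and 1 above it, under median centring and under loess alike, all among those called here. Loess on the processed signals gave 81 and 11, with 80 of the 81 shared. The labelled J1 count, 6 here, was 2 with mode centring, 10 without centring and 2 without chromosome 8, where the labelled TKO count stayed within 1.5 times of 142 (201, 121 and 137). By the adjusted p alone the counts were 2128 and 1721. Leaving out single arrays gave 118 to 177 and 2 to 11 calls; the J1 count was 11 without array 1 and 2 without array 6. Under the other alternatives run (the value table, medians over probes, background filters, splitting, 5 probes, both parts of the design adjusted together, the slide block), the counts stayed within 1.5 times. So did the counts over names with 1 place and RefSeq's chromosome (134 and 5). That choice, and leaving out the farthest probe, were made after seeing the data.

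The chromosome 8 median was 0.067 with normexp (adjusted p = 0.125), 0.083 with loess (0.0625), and 0.077 to 0.085 without single arrays (0.075 to 0.09375), past the threshold in none of these. Of the genes with a called promoter, 3 to 4 were higher and 1 lower in TKO without single expression arrays, which leaves fewer genes with 2 values when arrays 1 or 2 go.

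Of 54 named promoters, 11 turned sign with normexp and median centring, where the median of all promoters was 0.038: Olfr893 (0.047), Vmn1r202 (0.0052), Olfr173 (0.20), H1f5 (0.094), Vmn1r229 (0.13), Pja2 (0.16), Vmn1r237 (0.16), Ms4a7 (0.053), Mtmr2 (0.19), Olfr201 (0.085) and Dnmt1 (0.066). None did under another alternative. The cause was not tested. No paired analysis was possible because the test already uses the ratio of both lines within an array, and replicate numbers are otherwise shared only with part 1, which carries other promoters.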
